A study of Mus musculus with 4 samples.

Results

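The receptor genes for γ-aminobutyric acid (GABA), glutamate, glycine and acetylcholine were chosen by their gene symbols, and 73 of the 27095 gene windows in the count table belonged to them. They were 16 subunit genes of GABA-A receptors, 3 of GABA-A rho receptors, 2 of GABA-B receptors, 5 of glycine receptors, 4 of AMPA, 5 of kainate, 2 of delta and 7 of NMDA receptors, 8 metabotropic glutamate receptors, 5 muscarinic receptors and 16 nicotinic receptor subunits. The measurement was H3K27me3, the histone mark laid down by Polycomb repressive complex 2 (PRC2), profiled by Cut&Tag in alveolar macrophages, the phagocytes of the lung airspaces. Lethally irradiated C57BL/6-Ly5.1 mice had received marrow of which 90% was Ly5.2 and 10% was wild-type Ly5.1, so the 10% was common to both groups. The Ly5.2 marrow was wild type (WT, 2 libraries) or carried a conditional knockout of Suz12, a core PRC2 subunit (cKO, 2 libraries), all on a C57BL/6 background. The deleting Cre, the deleted part of Suz12, the age of the mice, and whether Ly5.1 or surviving host macrophages were kept out of the sort are not stated in the labels used here.

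These receptors carry fast and slow signals between neurons. GABA-A, glycine, nicotinic, AMPA, kainate and NMDA receptors are ion channels opened by the transmitter, whereas GABA-B, muscarinic and metabotropic glutamate receptors act through G proteins. Most of the genes are silent outside the nervous system and muscle, and many such genes with CpG-rich promoters are known targets of PRC2, which binds at CpG islands. Macrophages are known for one of them above all, Chrna7, whose product, the α7 nicotinic receptor, transmits the anti-inflammatory effect of acetylcholine.

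To show what kind of promoter lies inside the windows described here, 4 sequences are given: the GABA-B subunit genes Gabbr1 and Gabbr2, which were called in opposite directions, Chrna7, which had the lowest adjusted p of the receptor genes, and Grm6, which stood high with few CG dinucleotides. Each is the 250 bases just before a RefSeq transcript start (GRCm38.p6, 5′ to 3′ on the strand of the gene), at chr17:37045716-37045965 (plus strand), chr4:46991715-46991964 (minus strand), chr7:63212527-63212776 (minus strand) and chr11:50850435-50850684 (plus strand). Capitals mark each CG, which reads the same on both strands.
Gabbr1: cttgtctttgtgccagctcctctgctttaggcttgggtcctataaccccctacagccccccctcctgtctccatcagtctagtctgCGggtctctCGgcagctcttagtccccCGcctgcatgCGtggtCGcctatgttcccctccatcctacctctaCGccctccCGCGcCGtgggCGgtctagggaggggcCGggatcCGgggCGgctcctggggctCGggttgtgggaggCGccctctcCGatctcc
Gabbr2: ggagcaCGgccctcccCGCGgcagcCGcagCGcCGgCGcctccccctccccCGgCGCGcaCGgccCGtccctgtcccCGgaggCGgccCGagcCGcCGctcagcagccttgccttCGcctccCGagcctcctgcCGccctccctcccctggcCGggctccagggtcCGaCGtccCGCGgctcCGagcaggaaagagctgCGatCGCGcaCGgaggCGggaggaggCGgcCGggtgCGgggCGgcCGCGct
Chrna7: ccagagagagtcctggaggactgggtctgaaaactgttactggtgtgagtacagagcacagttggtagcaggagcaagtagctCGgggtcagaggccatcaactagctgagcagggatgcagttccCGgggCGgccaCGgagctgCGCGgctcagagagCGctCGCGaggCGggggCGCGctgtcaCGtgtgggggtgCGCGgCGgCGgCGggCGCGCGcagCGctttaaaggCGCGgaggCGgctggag
Grm6: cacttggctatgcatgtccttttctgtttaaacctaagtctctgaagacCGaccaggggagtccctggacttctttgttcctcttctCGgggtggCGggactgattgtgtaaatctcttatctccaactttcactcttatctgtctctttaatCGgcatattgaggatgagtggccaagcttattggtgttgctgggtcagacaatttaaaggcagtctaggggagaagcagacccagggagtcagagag
The Gabbr2 stretch held 37 CGs, a number reached by 2.20% of the 32851 RefSeq promoter stretches of this length, and the Chrna7 stretch held 25, reached by 10.7%. The Gabbr1 stretch held 16 (reached by 25.4%) and the Grm6 stretch 4 (reached by 62.2%). Promoter sequences were matched for 52 of the 73 receptor genes, which is fewer than 80%, so a check of CpG content over the whole family is void. The counts cover whole gene windows and do not show where in a window the mark lies.

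The libraries held 2592297 and 2142175 counts over gene windows in WT and 3331138 and 3567282 in cKO, so depth moved with genotype, the cKO mean being 1.46 times the WT mean. Values are CPM, counts scaled to the TMM-adjusted library total, or CPM per kb of window for comparing genes, and a loss of the mark at all genes alike would not show in either. The Suz12 window held 8 and 10 counts in WT and 11 and 10 in cKO, too few to test, and says nothing about the deletion of its exons. Genes of alveolar macrophage identity carried little of the mark, 14 of 17 lying below the median of all windows in WT and 10 of 17 in cKO. Their median was 0.116 CPM per kb in WT and 0.151 in cKO, and they summed to 85.2 to 90.0 CPM in WT and 105 to 116 in cKO (Plet1 at 0 counts). Medians in WT and cKO were 1.12 and 1.16 for 7 B cell genes (Ms4a1 at 0 counts), 1.38 and 1.34 for 8 T cell genes, 0.318 and 0.389 for 7 granulocyte genes, 2.96 and 3.94 for 8 lung epithelial genes and 1.17 and 1.45 for 8 neuron genes. Summed levels overlapped between genotypes for the lung epithelial list, at 511 to 635 CPM in WT and 629 to 633 in cKO. They were lower in cKO for the neuron list, at 1808 to 1855 in WT and 1621 to 1726 in cKO. Most of these sums came from 1 gene, Rbfox3, at a mean of 1354 CPM in WT and 1177 in cKO. Of the tested genes on the neuron list 3 had a fold change above 0 and 4 below. The B cell list summed to 1217 to 1343 CPM in WT and 1241 to 1326 in cKO. The T cell list summed to 687 to 722 and 684 to 727, and the granulocyte list to 144 to 158 and 154 to 159. The part of other cells in the results was not tested. Of the 41 tested genes on these lists 1 was called by edgeR, against 6.42% of all 16752 tested genes. It was Syt1 of the neuron list, a sensor of synaptic vesicle release, named here after its values were seen. Syt1 gained by 0.48 ± 0.12 on the log2 scale (SE, adjusted p = 0.00340). A weak mark on all cells and a strong mark on few cells cannot be told apart in such bulk libraries.

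Receptor gene windows carried more H3K27me3 per kb than most windows in both genotypes. In WT their median was 0.979 CPM per kb, with 0.973 and 0.985 in the separate libraries, against 0.216 over all 27095 windows. In cKO it was 1.03, with 1.03 and 1.05 in the libraries, against 0.213. The libraries of a genotype gave nearly the same median. Of the 73 receptor genes 65 stood above the median of all windows in WT, 37 (50.7%) stood above the 75th percentile of all windows and 18 (24.7%) above the 90th. Their windows were long, with a median of 76.0 kb against 18.1 kb, and all of them together held 1.22% to 1.27% of each library's counts on 1.19% of the summed window length. Among the 73 receptor genes the long windows were the less densely marked ones (Spearman rho −0.31 between window length and WT level). Over all 27095 windows this rho was 0.18. In the 24 receptor windows of at least 200 kb the WT median was 0.758 CPM per kb, against 0.541 in all 959 such windows. In shorter windows it was 1.25 for receptor genes against 0.210 for all. Across genes the order of levels was nearly the same in both genotypes (Spearman rho 0.98 over the 73 genes, which share libraries and are not replicates).

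**Figure D1:**
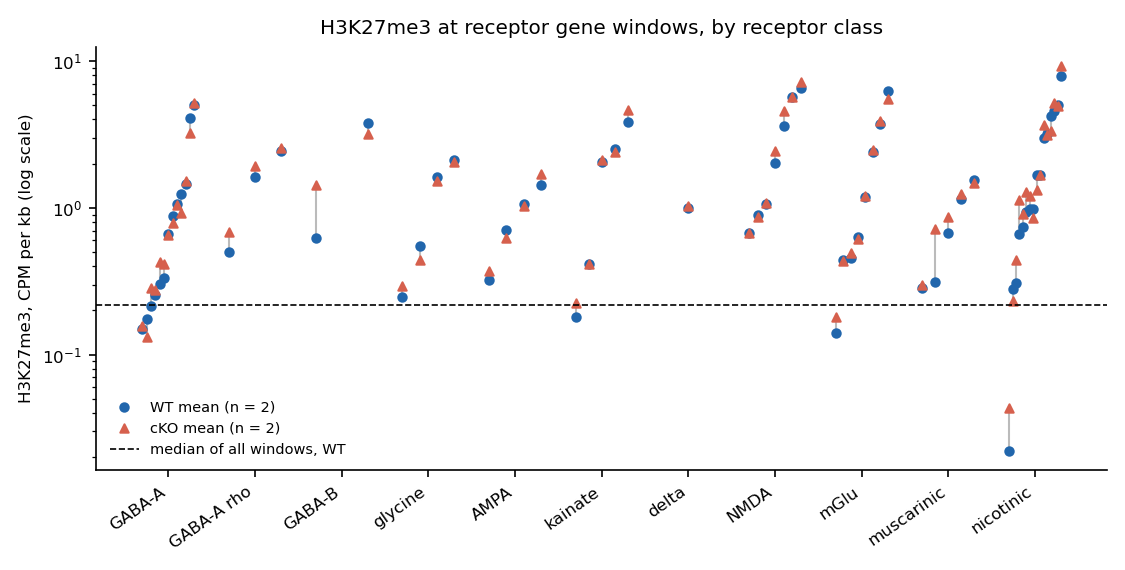
H3K27me3 level (CPM per kb of window, log axis) of 68 receptor genes by receptor class, with the WT mean as a blue circle and the cKO mean as an orange triangle joined by a grey line (2 libraries each), and the WT median of all windows, 0.216, as a dashed line. Most genes lie above the dashed line in both genotypes; Glra4, with 0 counts in every library, is not drawn.

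Per kb of the full window, the highest receptor gene was Chrna4, the α4 nicotinic subunit of brain receptors. It had 8.51 and 7.19 CPM per kb in the WT libraries and 9.40 and 9.04 in the cKO libraries. Then came Grin2c, an NMDA receptor subunit of the cerebellum, at 6.56 ± 0.748 in WT and 7.18 ± 0.330 in cKO (SD, n = 2 each), and Grm6, the glutamate receptor of retinal ON bipolar cells, at 6.22 ± 0.127 and 5.52 ± 0.00255. Grin1, the obligate NMDA receptor subunit, had 5.66 ± 0.324 and 5.65 ± 0.475. Gabrd, the δ subunit of extrasynaptic GABA-A receptors, had 5.04 ± 0.280 and 5.16 ± 0.0126, and Chrna3, the α3 subunit of autonomic ganglia, 5.00 ± 0.0161 and 4.97 ± 0.406. In this order Grin2c and Grm6 differed by less than the SD of Grin2c, and Gabrd and Chrna3 by less than the SD of Gabrd, while the other steps were larger than the SD of either gene. At the other end Glra4, a glycine receptor subunit, had 0 counts in all libraries. For counting error alone this allows up to 0.841 to 1.40 CPM (3 counts of the library total). Reads left unassigned through overlap are not covered by that limit. Chrne, the ε subunit of the adult muscle receptor, had 0 and 1 counts in WT and 1 and 2 in cKO. Grm7, Gabrg1, Gabra6 and Grik2 stood at 0.140, 0.148, 0.173 and 0.181 CPM per kb in WT, all below the median of all windows. Windows of other genes overlap all of the Glra4 window, 77.5% of Chrne, 62.8% of Gabrd, 52.2% of Chrna3, 39.6% of Grin1 and 37.8% of Grin2c. Over all genes, 67.1% of the 2444 wholly overlapped windows had 0 counts in every library. Of the 10809 windows free of overlap 1.28% did. The levels of these genes are therefore uncertain. Their order is uncertain too, as lengths were not shortened by overlap here. Grin3b, with 85.4% of its window overlapped, stood at 3.63 ± 0.670 CPM per kb in WT, below the 6 named.

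**Figure D2:**
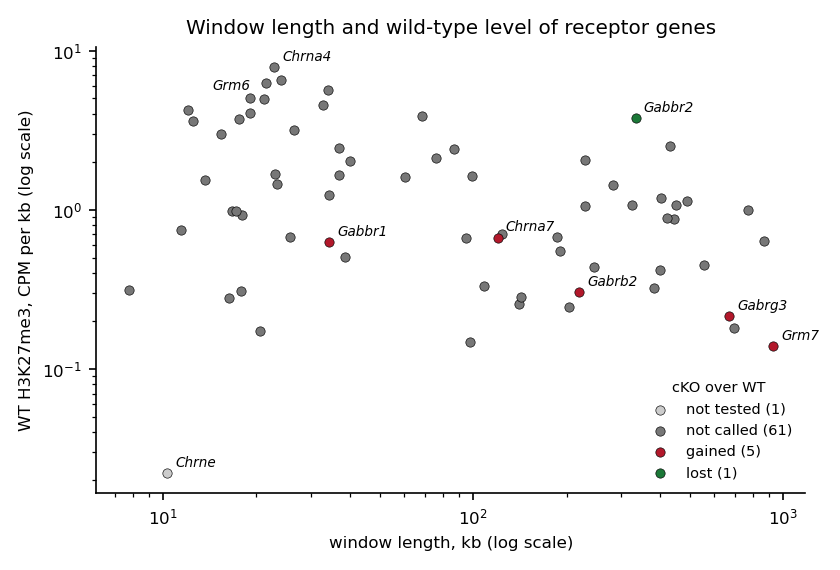
WT level (CPM per kb) against window length (kb), both on log axes, for 68 receptor genes with counts, coloured by the call in cKO over WT. Chrna4 and Grm6 lie at the upper left and the called genes lie at 34.3 to 928 kb.

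Most receptor genes had no called change in their share of H3K27me3 between cKO and WT libraries. Of the 71 receptor genes with enough counts to test, 5 gained the mark in cKO, namely Gabbr1, Chrna7, Gabrb2, Gabrg3 and Grm7, and 1, Gabbr2, lost it (edgeR's quasi-likelihood test, Benjamini-Hochberg adjusted p below 0.05 over all genes). These 6 genes were 8.45% of those tested, against 6.42% of all 16752 tested genes (4.46% gained, 1.96% lost), so the share was near the background. Receptor genes had a median of 280 counts per library against 43 over all tested genes. Of the 24 receptor genes in windows of at least 200 kb 4 were called (16.7%), against 16.2% of all 949 such windows. The genotypes did not overlap in CPM at 39 of the 71 receptor genes, against 47.6% of all tested genes, with cKO above at 27 and below at 12 (3986 and 3990 over all tested genes). The median log2 fold change (cKO over WT) was 0.07, against −0.01 over all tested genes, with 46 values above 0 and 25 below (8097 and 8655 over all tested genes). It was −0.02 with upper-quartile scaling and −0.03 with TMM scaling on the most marked 10% of genes, so its sign rests on the scaling. Over all tested genes the median was −0.10 and −0.11 under these scalings, below that of the receptor genes as in the main fit. Of the 6 calls those of Gabbr1 and Chrna7 held under all 14 alternative settings, and by DESeq2 these 2 genes alone were called.

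**Figure D3:**
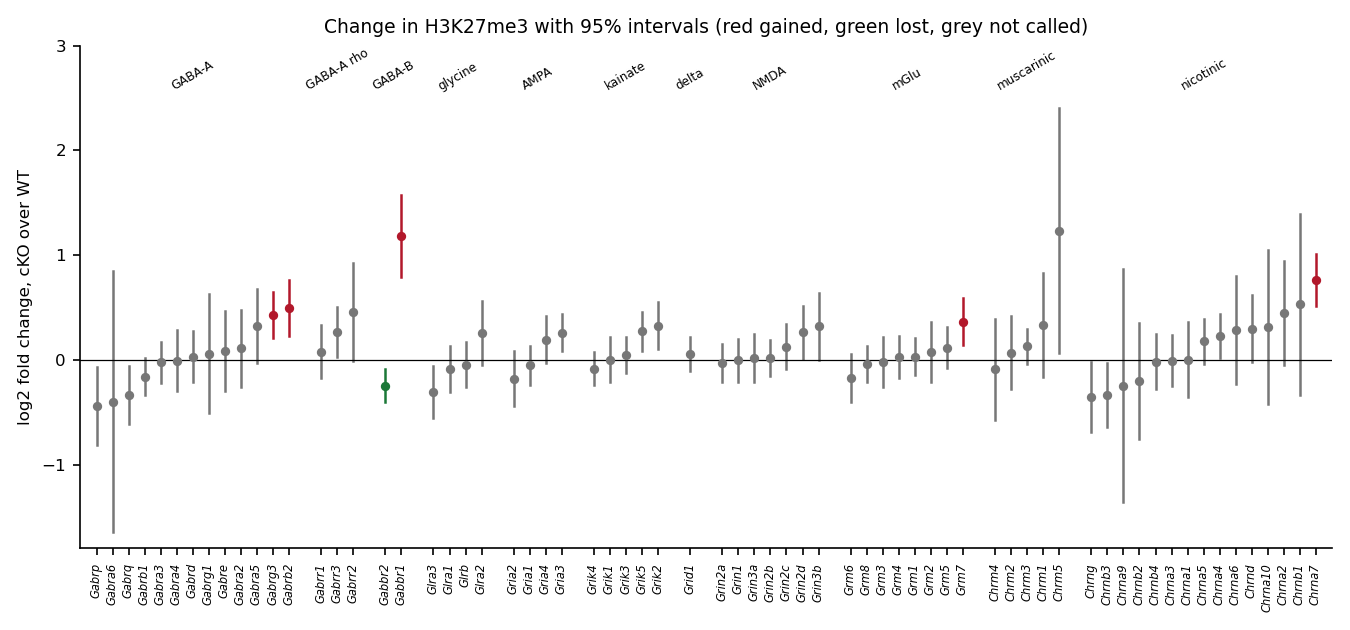
Log2 fold change of H3K27me3 (cKO over WT, points) with its 95% interval (lines) for 67 of the 71 tested receptor genes, ordered within each receptor class, with gains in red, the loss in green and genes that were not called in grey. Gabbr1 and Chrna7 have intervals of 0.79 to 1.58 and 0.52 to 1.01, far above 0, while most intervals cross 0.

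The subunits of the GABA-B receptor, which works only as a pair of Gabbr1 and Gabbr2 products, were called in opposite directions. Gabbr1, the subunit that binds GABA, on chromosome 17 (37045966 to 37074305 in GRCm38), had 23.3 and 19.7 CPM in WT and 50.5 and 47.9 in cKO. Both cKO libraries lay above both WT libraries, and the change was 1.19 ± 0.20 on the log2 scale (SE, adjusted p = 7.62e-07), a 2.27-fold rise with a 95% interval of 1.73 to 2.98. Gabbr2, the subunit that couples to G proteins, on chromosome 4 (46662318 to 46991714), had 1298 and 1212 CPM in WT and 1040 and 1077 in cKO. Both cKO libraries lay below both WT libraries, and it fell by 0.25 ± 0.08 on the log2 scale (adjusted p = 0.0375), to 0.843 of the WT level with an interval of 0.757 to 0.940. Relative to other windows Gabbr2 still stood high in cKO, at 3.17 ± 0.0769 CPM per kb against 1.43 ± 0.0526 for Gabbr1 (3.76 ± 0.184 and 0.625 ± 0.0737 in WT). The windows of these genes overlap no other. The Gabbr2 call was lost with housekeeping scaling (−0.11, adjusted p = 0.878), without a count filter (adjusted p = 0.084), with the replicate number as a block (0.0609), by DESeq2 (0.0552) and without WT library 1 (0.172), cKO library 1 (0.335) or cKO library 2 (0.239).

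**Figure D4:**
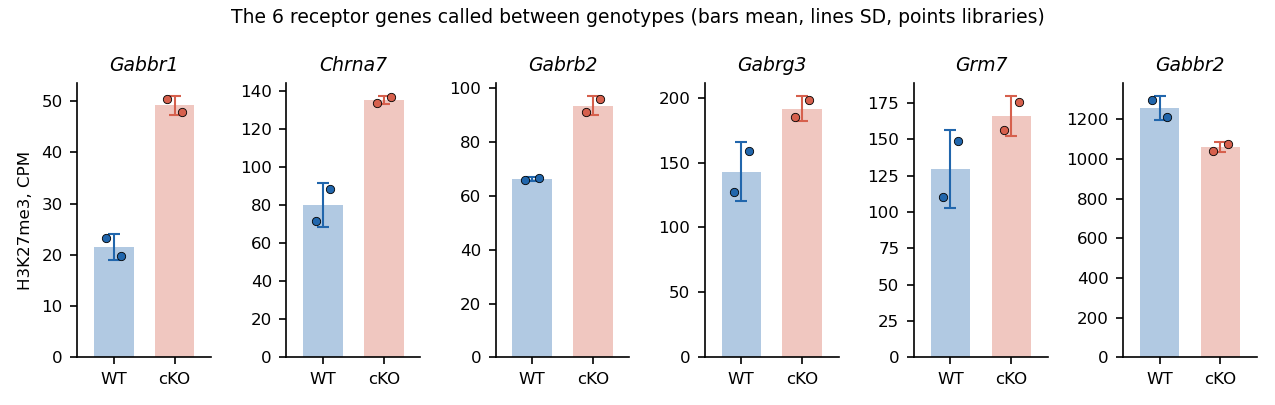
H3K27me3 (CPM, axes from 0 and scaled separately) of the 6 called receptor genes, with bars for the mean of 2 libraries, lines for the SD and points for the libraries. At every gene both cKO points lie on one side of both WT points; the gap is widest, relative to the level, at Gabbr1.

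Among the nicotinic receptor genes 1 of 15 tested was called, Chrna7, and 9 of 15 had a fold change above 0. Chrna7, on chromosome 7 (63098692 to 63212526), had 71.7 and 88.4 CPM in WT and 134 and 137 in cKO, so that the genotypes did not overlap. The change was 0.76 ± 0.12 on the log2 scale (adjusted p = 3.70e-07), a 1.70-fold rise with an interval of 1.43 to 2.01, and it ranged from 0.62 to 0.92 over the alternative settings. In CPM per kb it rose from 0.668 ± 0.0981 to 1.13 ± 0.0181, which is still far below Chrna4, and its window overlaps no other. The gene with the next lowest p of the class was Chrna4 itself, whose libraries are given above and did not overlap between genotypes (log2 fold change 0.23 ± 0.10, adjusted p = 0.206). Chrna4 was called as gained without WT library 1 (0.37, adjusted p = 0.0457).

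Nicotinic genes that lie next to each other showed no called change. Chrna5, Chrna3 and Chrnb4, which encode subunits of ganglionic receptors and lie in a row on chromosome 9 (54980827 to 55048953), had 4.57 ± 0.211, 5.00 ± 0.0161 and 3.18 ± 0.407 CPM per kb in WT and 5.16 ± 0.148, 4.97 ± 0.406 and 3.12 ± 0.355 in cKO. All of them were densely marked, with log2 fold changes of −0.02 to 0.18 (adjusted p = 0.398 to 0.986). Chrnd and Chrng, the δ and the fetal γ subunits of the muscle receptor, adjoin on chromosome 1 (87190597 to 87211835). Chrnd had 43.8 and 48.5 CPM in WT and 58.4 and 54.9 in cKO (0.30 ± 0.16, adjusted p = 0.311), and Chrng had 57.4 and 44.9 in WT and 43.1 and 37.4 in cKO (−0.36 ± 0.17, adjusted p = 0.229). Their genotypes thus did not overlap, in opposite directions, but neither passed the test. On chromosome 8 (27368711 to 27413944) the subunit genes Chrnb3 and Chrna6 likewise had values of opposite sign, −0.33 ± 0.16 (adjusted p = 0.214) and 0.29 ± 0.26 (adjusted p = 0.615). Chrnb1, the β subunit of the muscle receptor, less than 1 Mb from Chrne on chromosome 11, had 13 and 13 counts in WT and 29 and 24 in cKO (0.53 ± 0.44, adjusted p = 0.568). Other windows overlap 6.8% to 66.3% of these windows, and all of them but the Chrnb1 window overlap a neighbour in the family, so reads between such genes could not be assigned with certainty.

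Of 16 GABA-A receptor subunit genes 2 were called, both as gained, and most of the family lies in sets of neighbours on chromosomes 5, 7, 11 and X that differed in level. Gabrb2, the β2 subunit of the most common brain receptor, on chromosome 11 (42419515 to 42632591), had 65.9 and 66.8 CPM in WT and 91.1 and 96.1 in cKO. The libraries of a genotype lay close together, and the change was 0.50 ± 0.14 (adjusted p = 0.00877), a 1.41-fold rise with an interval of 1.17 to 1.70. Its neighbour Gabra6, an α subunit of cerebellar granule cells, stood at 0.173 CPM per kb in WT beside 0.303 for Gabrb2. Gabra6 had a log2 fold change of −0.40 ± 0.63 (adjusted p = 0.802) and rests on 6 to 12 counts per library. Gabrg3, a γ subunit on chromosome 7 (56716463 to 57387215), had 127 and 159 CPM in WT and 185 and 198 in cKO, a change of 0.43 ± 0.11 (adjusted p = 0.00433). Next to it Gabra5, the α5 subunit of the hippocampus, had 0.32 ± 0.18 (adjusted p = 0.332). Whether Gabrb2 or Gabrg3 changed more than its neighbour was not tested. The calls of Gabrb2 and Gabrg3 were lost with housekeeping scaling (adjusted p = 0.0667 and 0.116), with TMM on the most marked 10% of genes (0.112 and 0.122), by DESeq2 (0.126 and 0.0772) and without WT library 1 (0.0520 and 0.205), cKO library 1 (0.0776 and 0.0535) or cKO library 2 (0.233 and 0.265). The Gabrg3 value was 0.28 without WT library 1.

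**Figure D5:**
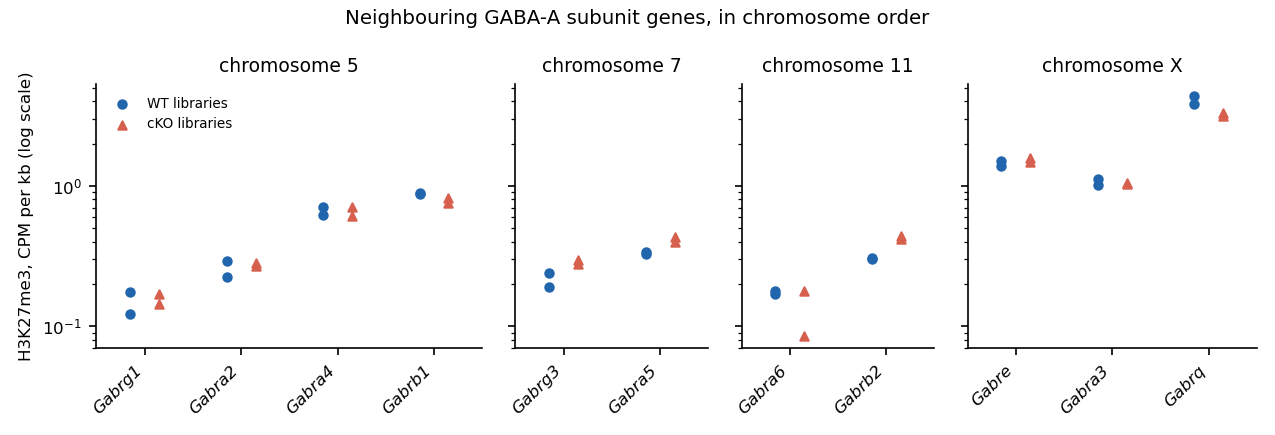
H3K27me3 (CPM per kb, log axis) of GABA-A subunit genes that lie near each other, in chromosome order, with a point for each WT library (blue circles) and each cKO library (orange triangles). Levels on chromosome X lie above 1 in all libraries, those on chromosomes 7 and 11 below 0.6, and on chromosome 5 the level climbs from Gabrg1 to Gabrb1 in both genotypes.

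The set on chromosome 5 ran from low to moderate levels, with Gabrg1 at 0.148 ± 0.0374, Gabra2 at 0.256 ± 0.0469, Gabra4 at 0.665 ± 0.0591 and Gabrb1 at 0.881 ± 0.00258 CPM per kb in WT. None of these subunits of brain receptors passed the test, with log2 fold changes of −0.16 to 0.11 and adjusted p = 0.354 to 0.983. Chromosome X held the most marked set, of the genes Gabre, Gabra3 and Gabrq for the ε, α3 and θ subunits, at 1.45 ± 0.0932, 1.06 ± 0.0701 and 4.08 ± 0.346. Gabrq had 82.6 and 73.3 CPM in WT and 63.3 and 60.5 in cKO, so the genotypes did not overlap (−0.34 ± 0.14, adjusted p = 0.149), and it was called as lost among genes with a mean of at least 50 counts (adjusted p = 0.0430). Gabrp, the π subunit of epithelia, outside these sets, had 43.0 and 42.1 CPM in WT and 32.1 and 30.7 in cKO (−0.44 ± 0.19, adjusted p = 0.158). Other windows overlap 30.4% of the Gabre window, and the deposited windows of Gabra5, Gabrb1 and Gabrq differ from their reference spans by −42.8%, −10.9% and −18.5%, so these levels are approximate.

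In 7 of the 11 receptor classes no gene was called, where 6.42% of all tested genes were. These classes are small, so the lack of a call is not read as a trait of a class. Of the 30 genes tested in them 9 had an unadjusted p below 0.05 by edgeR, against 3105 of all 16752 tested genes, and DESeq2 called 0. The GABA-A rho subunits of the retina stood at 2.45 ± 0.0543 (Gabrr1), 0.502 ± 0.0588 (Gabrr2) and 1.61 ± 0.159 (Gabrr3) CPM per kb in WT, with fold changes above 0 for all 3. Gabrr3 had 90.4 and 104 CPM in WT and 116 and 117 in cKO (0.26 ± 0.12, adjusted p = 0.212), and Gabrr2, next to Gabrr1 on chromosome 4, had 17.8 and 21.1 in WT and 27.5 and 25.7 in cKO (0.46 ± 0.24, adjusted p = 0.281). Of the glycine receptor genes Glrb, the β subunit that ties receptors to gephyrin, was the most marked, at 2.11 ± 0.0764 and 2.05 ± 0.181 CPM per kb. Its neighbour on chromosome 3, the AMPA receptor gene Gria2, whose product limits calcium entry, had 0.705 ± 0.0252 and 0.624 ± 0.0719, and neither passed the test (adjusted p = 0.890 and 0.518). Glra3 had 96.6 and 113 CPM in WT and 85.0 and 83.8 in cKO (−0.31 ± 0.13, adjusted p = 0.142) and was called as lost with upper-quartile scaling (adjusted p = 0.0474) and among genes with a mean of at least 50 counts (0.0340). Glra2, the fetal α subunit, had 43.8 and 56.3 CPM in WT and 57.5 and 61.3 in cKO (0.26 ± 0.16, adjusted p = 0.395).

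Ionotropic glutamate receptor genes, which carry most fast excitation in the brain, had no call, and their 18 log2 fold changes ran from −0.18 to 0.33. Several of them lay close to the threshold on the side of gain. Gria3, an AMPA receptor gene on chromosome X, had 388 and 419 CPM in WT and 464 and 502 in cKO (0.26 ± 0.09, adjusted p = 0.0563), and was called without a count filter (adjusted p = 0.0468) and without WT library 2 (0.0174). Grik2, a kainate receptor gene, had 119 and 132 CPM in WT and 147 and 167 in cKO (0.33 ± 0.11, adjusted p = 0.0631), and was called without WT library 2 (adjusted p = 0.0395). Grik5, which encodes a high-affinity kainate receptor subunit and is the most marked of that class at 3.86 ± 0.132 CPM per kb in WT, had 271 and 258 CPM in WT and 311 and 329 in cKO (0.27 ± 0.10, adjusted p = 0.0678). At all of these the genotypes did not overlap. Gria4 had 118 and 130 CPM in WT and 138 and 145 in cKO (0.19 ± 0.12, adjusted p = 0.376). Grid1, a delta receptor gene in a long window (767 kb), had 779 and 741 CPM in WT and 754 and 824 in cKO, so the genotypes overlapped (0.05 ± 0.08, adjusted p = 0.797). NMDA receptor genes, which gate synaptic plasticity, ranged from 0.672 to 6.56 CPM per kb in WT. Grin2d had 81.8 and 80.6 CPM in WT and 101 and 94.3 in cKO (0.26 ± 0.13, adjusted p = 0.253), and Grin3b had 51.2 and 39.4 in WT and 56.6 and 57.2 in cKO (0.32 ± 0.16, adjusted p = 0.266), with 20.9% and 85.4% of their windows overlapped by others. For Grin1 the 95% interval of the fold change was 0.864 to 1.15, and for the long and amply counted Grin2b it was 0.899 to 1.14.

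Of 8 metabotropic glutamate receptor genes 1 was called, Grm7, a presynaptic receptor gene of low density and very long window (928 kb) on chromosome 6 (110645349 to 111567230). It had 111 and 149 CPM in WT and 156 and 176 in cKO, so the genotypes lay apart by less than the WT libraries did from each other, and the change was 0.37 ± 0.11 (adjusted p = 0.0283). Grm7 was called under 5 of the 14 alternatives, with an adjusted p of 0.000267 to 0.587 over them. Without WT library 1 its value was 0.17 (adjusted p = 0.587) and without WT library 2 it was 0.60 (adjusted p = 0.000267). It was not called without cKO library 1 or 2 either (adjusted p = 0.0948 and 0.558). Grm6 had the next lowest p of the class, with 136 and 132 CPM in WT and 119 in both cKO libraries (−0.17 ± 0.12, adjusted p = 0.461). The muscarinic receptor genes, which encode the acetylcholine receptors of glands, smooth muscle and brain, had 0.285 to 1.55 CPM per kb in WT. Chrm3, the receptor of airway smooth muscle and glands, had 531 and 587 CPM in WT and 625 and 598 in cKO (0.13 ± 0.09, adjusted p = 0.442). Chrm5 had 3 and 8 counts in WT and 23 and 14 in cKO, a fold change of 2.35 with an interval as wide as 1.05 to 5.28 (adjusted p = 0.234). Its deposited window differs from its reference span by −87.8%. Aven overlaps 77.8% of the reference window, and how much of the deposited window it overlaps is not known.

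Genes that make, move or anchor these transmitters and receptors were counted alongside, from a list of 85. Of 78 tested, 4 gained and 2 lost the mark (7.69%, again near the background of 6.42%), with a median log2 fold change of 0.05. Gphn, which encodes gephyrin, the scaffold of glycine and GABA-A receptors, on chromosome 12 (78217325 to 78684772), had 68.6 and 64.1 CPM in WT and 231 and 239 in cKO. That is a change of 1.82 ± 0.12 on the log2 scale (adjusted p = 2.92e-35), larger than at any tested receptor gene. The glial glutamate transporter genes moved apart: Slc1a2 had 227 and 235 CPM in WT and 343 and 355 in cKO (0.59 ± 0.10, adjusted p = 3.06e-07), while Slc1a3 had 156 and 153 in WT and 63.6 and 64.8 in cKO (−1.27 ± 0.12, adjusted p = 2.14e-18). Musk, the kinase that gathers nicotinic receptors at the muscle endplate, had 149 and 160 CPM in WT and 204 and 199 in cKO (0.39 ± 0.11, adjusted p = 0.0104) and Cbln2, a secreted organizer of delta receptor synapses, had 5.43 and 9.16 in WT and 12.2 and 18.1 in cKO (1.08 ± 0.35, adjusted p = 0.0357). Dlg4, which encodes the glutamate receptor scaffold PSD-95, had 25.6 and 28.8 CPM in WT and 10.4 and 15.8 in cKO (−1.05 ± 0.26, adjusted p = 0.00222), in a window that others overlap in part. By role, 0 of 13 tested genes of transmitter synthesis, breakdown and vesicle loading were called (0 with an unadjusted p below 0.05 by edgeR, and 0 by DESeq2), 2 of 12 transporters, 2 of 33 glutamate receptor partners, 1 of 9 GABA and glycine receptor partners and 1 of 12 acetylcholine receptor partners. The calls of Gphn, Slc1a2 and Slc1a3 held under all 14 alternatives and were the 3 that DESeq2 made. Musk was called under 6 of 14. It was not called by DESeq2 (adjusted p = 0.0759), with upper-quartile scaling (0.0637), housekeeping scaling (0.172), TMM on the most marked 10% of genes (0.165) or thinned counts (0.0517). It was not called either without WT library 1 (0.0783), cKO library 1 (0.198) or cKO library 2 (0.173). Dlg4 was not called by DESeq2 (adjusted p = 0.0869), without WT library 2 (0.05002) or without cKO library 1 (0.140). Cbln2, with few counts and no adjusted p from DESeq2, was called under 6 of the 12 alternatives that tested it, and not without WT library 1 (adjusted p = 0.365) or cKO library 2 (0.531).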

How the data were processed

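H3K27me3 Cut&Tag libraries were made from 100000 sorted alveolar macrophages each with 0.5 µg of antibody and sequenced as 36 bp pairs, as the protocols and design text of the labels state. The authors deposited 1 table of raw counts per Entrez gene for 4 libraries, with the length of each counted window; per the submitters' processing notes the counter was featureCounts and the build mm10, and the aligner, duplicate handling and treatment of overlaps are not named in the labels. Symbols and positions came from RefSeq GRCm38.p6, which matched 25204 of 27095 IDs (93.0%) and all 73 receptor genes. The deposited window equals the reference gene span with 3 kb on each side for 11524 genes, and lies within 5% of it for 60 receptor genes. Overlaps were computed from reference positions with these flanks.

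Genotypes, grouped by sample titles, were compared with edgeR 4.0.16 in R 4.3.3 (filterByExpr, TMM, quasi-likelihood F-test, genotype only) on all 16752 genes that passed the filter, with Benjamini-Hochberg adjustment over all of them. Glra4 and Chrne were below the filter. SEs are the log2 fold change divided by the square root of F, and SDs are over 2 libraries. The test was checked on simulated counts that gave every gene the same spread between libraries. It recovered 48.5% of 1.5-fold, 80.6% of 2-fold and 98.4% of 3-fold changes, and 13 of its 164 calls were false. Changes were placed only in genes above a minimum mean count, so recovery at genes with few counts was not checked. Alternatives were DESeq2 1.42.0, other scalings (size factors, library totals, upper quartile, 30 housekeeping genes), no filter, a mean of at least 50 counts, a replicate block and leaving out each library. TMM on the top 10% by counts per kb and counts thinned to the shallowest library were added after seeing the data. The p-values measure the spread between libraries, which the labels call biological replicates; libraries of one genotype differed by more than sampling noise (chi-square over its degrees of freedom 1.79 and 1.94), so no library was a copy. The receptor genes and lists were chosen with earlier results of these data known. Genes were named by rule: called receptor genes, the 6 highest and 6 lowest WT levels per kb, the 2 lowest p of each class, receptor genes starting within 1 Mb of each other, called partner genes, and Suz12. Syt1, Rbfox3, Gabrp and Grin2b were added after their values were seen. Of the 73 receptor genes, 4 are counted in all totals but not reported or drawn singly. Intervals for 0 counts cover counting error only.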

Additional observations from a re-analysis of the deposited data

How the results depend on the processing

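The WT median of 0.979 CPM per kb was 1.10 when windows were shortened by their overlaps and 0.973 to 0.985 when either WT library was left out. Gained and lost receptor genes numbered 5 and 1. They were 2 and 0 with housekeeping scaling, 2 and 0 by the DESeq2 Wald test, 4 and 2 on upper-quartile factors, 6 and 0 with no count filter, 5 and 3 for genes averaging 50 counts or more, 2 and 1 with TMM on the top decile, and 2 to 7 and 0 to 1 when 1 library was left out. Leaving out windows with at least 10% overlap gave 5 and 1. The median log2 fold change of the receptor genes, 0.07, was 0.0117 on library totals, −0.0179 on upper-quartile factors, 0.207 on housekeeping scaling, 0.0175 for genes averaging 50 counts or more, −0.0290 for TMM on the top decile and 0.0639 to 0.122 without 1 library; housekeeping scaling, which rests on 290 to 398 counts per library, and TMM on the top decile moved the median of all genes from −0.01 to 0.12 and −0.11. All genes called, 1076, were 586 with housekeeping scaling, 376 by DESeq2 and 426 to 945 without 1 library; gains made up 69.4% of calls, 55.7% with library totals, 48.8% with upper-quartile factors, 87.2% with housekeeping scaling, 86.2% by DESeq2 and 48.1% with TMM on the top decile. Gained and lost partner genes, 4 and 2, were 3 and 5 on library totals, 2 and 7 on upper-quartile factors, 3 and 7 for genes averaging 50 counts or more, 2 and 1 by DESeq2, 2 and 5 with TMM on the top decile, and 2 to 5 and 1 to 3 without 1 library. The cause of these shifts was not tested. With the replicate block, 5 receptor genes gained and 0 lost; the libraries share only a number (correlation of the differences between replicates 0.00948 across genes), and 1039 genes were called in all. With 1 library left out, the lone library is assumed to vary like the others. Thinning called 753 genes, and Grm7 then had an adjusted p of 0.0666.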
